A study of Drosophila melanogaster with 29 samples.

Results

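The genes described here are the 10 *Drosophila melanogaster* enzymes that write or erase methyl groups on lysine 4 and lysine 36 of histone H3: *Set1*, *trx*, *trr*, *ash1*, *Set2*, *NSD*, *Kdm2*, *Kdm4A*, *Kdm4B* and *Kdm5*. They were chosen by name, as writers and erasers of the modifications H3K4me3 and H3K36me3 that the series profiled, and all 10 have a row among the 7602 genes of the deposited expression table. The series labels 29 samples in 9 groups, and the values below come from its 3 nuclear RNA-seq libraries, while the 26 samples of ATAC-seq, histone ChIP-seq, input DNA and CUT&Tag were not analysed here. The RNA libraries came from male flies aged 10 days after eclosion, were each started from 10 ng of RNA, and form a single group with no RNA control. The flies were mutant for *w* and carried *ry[506]*. On chromosome 3 they carried UAS-GFP-Msp300KASH at attP2, a green fluorescent protein anchored to the nuclear envelope and marked with *w[+mC]*, and rh1-GAL4, marked with *ry[+t7.2]*, which drives it. Because the rhodopsin promoter in rh1-GAL4 is active in outer photoreceptors, the tagged nuclei stand for that photoreceptor class and not for the whole retina.

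Methylation of H3K4 is laid down by 3 complexes of the COMPASS family, each built around its own catalytic subunit, and its trimethyl form marks the promoters of active genes. Methylation of H3K36 lies over the bodies of transcribed genes, where the trimethyl form is written by an enzyme that travels with elongating RNA polymerase. Both marks are removed largely by demethylases with a Jumonji C domain. Photoreceptors are long-lived neurons that transcribe light-response genes at very high levels.

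A normalized count is a gene's number of reads over its library's size factor. The libraries held 3051440 to 3781302 reads in the table, and 1 read was worth 1.29 to 1.49 normalized counts. Long genes collect more reads, so levels are compared between genes after division by the gene span, the distance from the first to the last annotated base in Release 6 of the genome (dm6), with undivided values beside some of the comparisons. Whether reads were counted over exons or over whole genes is not given in the sources used here, and the levels per kb, their order and the ratios between roles depend on it. All 10 listed photoreceptor markers had a row, with means from 3577 (*gl*) to 71061 (*norpA*) normalized counts. At that depth 7 of them differed between libraries in the chi-square test described below, against 9.76% of all genes tested. The 24 genes with a row on 6 lists of other cell types (glia, muscle, other neurons, fat body with blood, pigment with cone cells, and the rhodopsins of inner photoreceptors) had means from 1.87 to 217, and each of these lists summed to between 206 and 599 in every library. None of the 22 of them that were tested differed between libraries in the same test (adjusted p under 0.05), against 9.76% of all genes. At an unadjusted p under 0.05, 2 of the 22 did, against 20.9% of all genes tested. Some of the 22 had few reads a library, such as *wupA* (6 to 10) and *repo* (20 to 33). In these the test could detect only large differences. Per kb of gene span the 24 genes ran from 0.22 (*nompA*) to 94.6 (*Rh3*) normalized counts. Of the enzymes described below, only *Set1* and *trr* had a mean above that of *Rh3* per kb. Undivided, the enzymes *NSD* (123) and *Kdm4A* (164) lay below the highest of these markers, *Hml* (217). The enzymes are used by many cell types, and how much of their RNA came from other nuclei was not tested. In bulk nuclei, fewer cells of a type and less RNA per cell cannot be told apart.

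The H3K4 methyltransferases were the highest of the 3 roles per kb of gene span. *Set1* (FBgn0040022; dm6 3L, 25107594 to 25115180), which provides most H3K4 di- and trimethylation in flies, had 1056.0, 924.5 and 1240.0 normalized counts in replicates 1, 2 and 3, from 821, 619 and 938 reads. Replicate 3 was the high library and replicate 2 the low one. Over its span this is 141 ± 20.9 normalized counts per kb (SD, n = 3), the highest of the 10 genes. *trr* (FBgn0023518; X, 1881313 to 1889950), the fly homologue of mammalian MLL3 and MLL4 and a writer of H3K4 monomethylation at enhancers, had 982.7, 881.2 and 826.2 normalized counts, highest in replicate 1. Per kb it stood at 104 ± 9.2. *trx* (FBgn0003862; 3R, 14263358 to 14286903), the founding Trithorax group gene, which keeps homeotic genes active, had 2097.8, 2017.8 and 2123.1 normalized counts. These 3 values lie within 1.05-fold of each other. It had the most reads of the 10 genes, but its span of 23.5 kb is also the longest, and per kb it stood at 88.3 ± 2.3. The 3 genes thus exchange places with the division: *trx* led *trr* by 2.32-fold before it, and *trr* led *trx* by 1.17-fold after it.

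Levels of the H3K36 methyltransferases were lower. *Set2* (FBgn0030486; X, 13413242 to 13421024), the enzyme bound to elongating RNA polymerase that makes H3K36me3, had 583.9, 504.8 and 505.0 normalized counts, or 68.3 ± 5.9 per kb. *ash1* (FBgn0005386; 3L, 19590773 to 19598755), a Trithorax group gene whose product makes H3K36 dimethylation and counteracts Polycomb silencing, had 442.5, 458.5 and 470.6 normalized counts, or 57.3 ± 1.8 per kb. *Set2* lay above *ash1* in all 3 libraries, by 1.19-fold per kb, and their per-kb ranges did not overlap. *NSD* (FBgn0039559; 3R, 27932982 to 27937853), also known as Mes-4, the fly member of the NSD family, which dimethylates H3K36 in mammals, was the lowest of the 10 genes on either scale. It had 127.3, 131.4 and 111.0 normalized counts from 99, 88 and 84 reads, and 25.3 ± 2.2 per kb. Its level per kb was below *Set2* by a log2 ratio of 1.43 ± 0.14 and below *ash1* by 1.18 ± 0.16 (*Set2* or *ash1* over *NSD*, SD, n = 3). Each was in the same direction in 3 of 3 libraries.

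The 4 demethylases ran from 33.5 to 74.0 normalized counts per kb. *Kdm5* (FBgn0031759; 2L, 5989400 to 5999501), first named *lid* and the fly enzyme that removes H3K4 trimethylation, had 477.2, 578.0 and 515.6 normalized counts, highest in replicate 2, and 51.8 ± 5.0 per kb. *Kdm2* (FBgn0037659; 3R, 9052495 to 9063245), whose mammalian relatives remove H3K36 dimethylation, had 375.6, 365.9 and 368.8, the closest set of values among the 10 genes, and 34.4 ± 0.46 per kb. *Kdm4A* and *Kdm4B* are paralogues whose products act on methylated H3K36 and H3K9. *Kdm4A* (FBgn0033233; 2R, 7922775 to 7924988) had 194.2, 138.9 and 158.6 normalized counts from 151, 93 and 120 reads, and *Kdm4B* (FBgn0053182; 2R, 13176553 to 13198337) had 780.7, 687.1 and 720.5. Without division by length *Kdm4B* was 4.49-fold higher than *Kdm4A*. The span of *Kdm4A* is 2.21 kb and that of *Kdm4B* 21.8 kb, and per kb *Kdm4A* (74.0 ± 12.7) stood above *Kdm4B* (33.5 ± 2.2) by 2.19-fold, in 3 of 3 libraries. The direction between these paralogues therefore depends on whether span is divided out. In the annotation, 62.1% of the *Kdm4B* span also belongs to *CG17724* (212 normalized counts) and to *seq*. Strand use in counting is not given in the sources used here, so the value of *Kdm4B* is uncertain. Among the remaining members, 4 have no overlapping gene and 5 overlap another gene over less than 10% of their span.

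**Figure D1:**
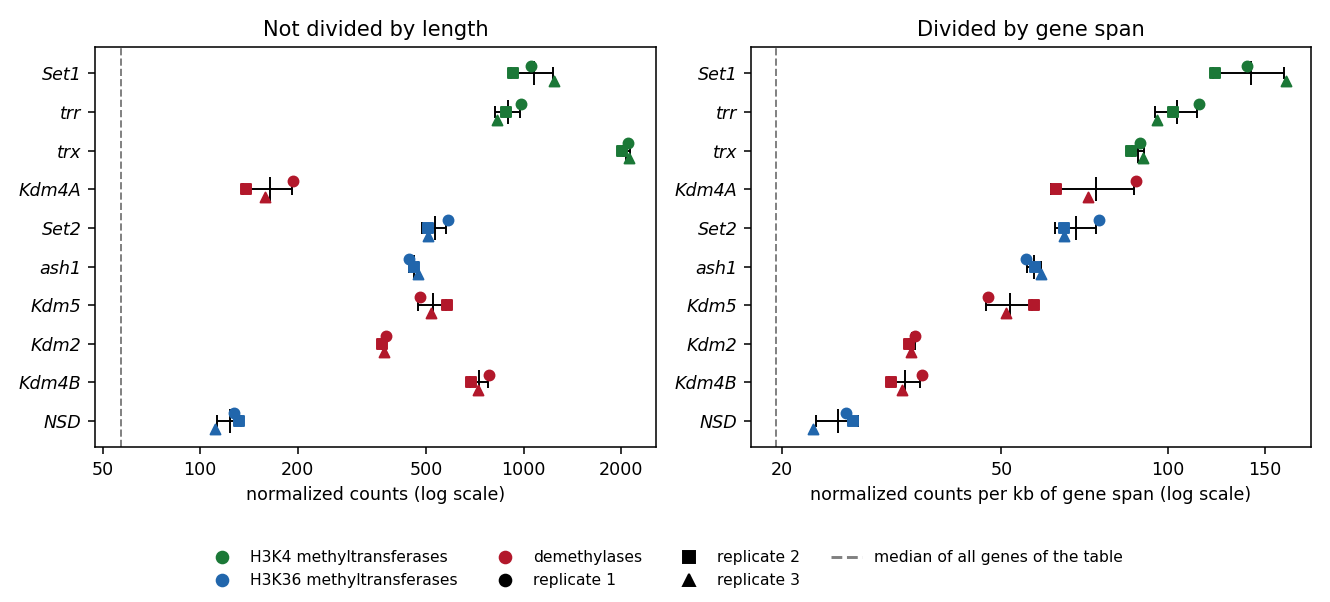
Normalized counts of the 10 genes (left) and the same values per kb of gene span (right), on log axes. Each symbol is a library, the bar is the mean ± SD of 3 libraries, colour gives the role and the dashed line is the median of all genes of the table (56.8 on the left, 19.6 on the right); all symbols lie right of it, *trx* leads on the left and *Set1* on the right.

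Summed by role, the H3K4 methyltransferases reached 342, 310 and 349 normalized counts per kb in replicates 1, 2 and 3, and the H3K36 methyltransferases 157, 149 and 147. The log2 ratio of the first sum to the second was 1.13, 1.05 and 1.25, a mean of 1.14 ± 0.10 or 2.21-fold (SD, n = 3; above 0 in 3 of 3 libraries). An exact sign-flip permutation test over libraries gave a two-sided p of 0.25, the smallest that 3 libraries allow. Without division by length the log2 ratio was 1.86 ± 0.07. The 6 methyltransferases together stood above the 4 demethylases by 1.32 ± 0.05 on the log2 scale (2.50-fold, 3 of 3 libraries, exact permutation p = 0.25), with demethylase sums of 206, 186 and 190 normalized counts per kb. These are ratios within a library, which no scaling of libraries alters. The second sets a sum over 6 genes against a sum over 4, so part of it comes from the number of genes. The median gene stood at 104 normalized counts per kb for the H3K4 methyltransferases, 57.3 for the H3K36 methyltransferases and 43.1 for the demethylases. The 3 libraries are separate samples in the labels, which do not say whether they came from separate batches of flies, so their spread may be technical.

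The order of the levels per kb was *Set1*, *trr*, *trx*, *Kdm4A*, *Set2*, *ash1*, *Kdm5*, *Kdm2*, *Kdm4B* and *NSD*. Of the 9 neighbours in this order, 5 had ranges over the 3 libraries that did not overlap: *Set1* and *trr*, *trr* and *trx*, *Set2* and *ash1*, *Kdm5* and *Kdm2*, and *Kdm4B* and *NSD*. The ranges of the other 4 overlapped: *trx* and *Kdm4A*, *Kdm4A* and *Set2*, *ash1* and *Kdm5*, and *Kdm2* and *Kdm4B*. Within libraries, *trx* lay above *Kdm4A* and *ash1* above *Kdm5* in 3 of 3, by log2 ratios as small as 0.02 and 0.006. *Kdm4A* lay above *Set2*, and *Kdm2* above *Kdm4B*, in 2 of 3. *Kdm2* and *Kdm4B* were the closest, with a log2 ratio of 0.04 ± 0.07. In all, 16 pairs were compared, the neighbours and every pair within a role, and 14 had the same sign in all 3 libraries. For these 14 the exact sign-flip p was 0.25 and 0.286 after adjustment over the 16 pairs, so no pair could pass a threshold of 0.05 in this design. For 9 of the 16 pairs the direction turned when counts were not divided by span.

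All 10 genes lay above the table's median gene, before and after division by span. Per kb, 7 of them stood between percentile 92.8 (*Set1*) and 76.8 (*Kdm5*) of the 7541 genes with a known span, while *Kdm2*, *Kdm4B* and *NSD* stood at percentiles 66.4, 65.7 and 57.7. Their median was 62.8 normalized counts per kb, against 19.6 for all genes. The enzymes took 0.146%, 0.147% and 0.141% of the reads in replicates 1, 2 and 3, and the Wilson 95% intervals of these shares overlapped (lowest bound 0.138%, highest 0.151%). Intervals cover counting error only, since reads can include PCR copies.

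To see which genes differed between the libraries by more than counting error, the recovered reads of each gene with a mean of at least 10 normalized counts were compared with the size factors by a chi-square test, with Benjamini-Hochberg adjustment over all 6903 genes tested. Of these genes 674 were called at an adjusted p under 0.05 (9.76%), and 15.3% of the 2217 genes whose mean lies between those of *NSD* and *trx*. Of the 10 enzymes 2 were called, *Set1* and *trr*. At this small number the share is not a result about the group. The test compares the 3 libraries with each other, not conditions.

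*Set1* was 1.34-fold higher in replicate 3 than in replicate 2, with a coefficient of variation of 14.8% where counting error alone would give 3.55% (chi-square adjusted p = 1.86e-06). Its replicate 3 interval, 1162 to 1322 normalized counts by exact Poisson limits, lay above those of replicates 1 (985 to 1131) and 2 (853 to 1000.3). The call was lost without replicate 3 (adjusted p = 0.182), and held with replicate 1 or replicate 2 left out (adjusted p = 4.93e-07 and 0.021). *trr* was 1.19-fold higher in replicate 1 than in replicate 3 (chi-square adjusted p = 0.0478), close to the threshold. It was no longer called without replicate 1 (adjusted p = 0.608) or without replicate 3 (0.366), nor when genes down to a mean of 1 were tested as well (0.0518). *Kdm4A* and *Kdm5* had unadjusted p-values of 0.0308 and 0.0289 and did not pass after adjustment (0.18 and 0.174). *Kdm5* did pass when libraries were scaled to equal totals (adjusted p = 0.0127), with replicate 2 again the highest. *Kdm4A* had the widest relative spread of the 10, a coefficient of variation of 17.1%, at a depth where counting error gives 9.08%. *trx*, *ash1*, *Set2*, *NSD*, *Kdm2* and *Kdm4B* had adjusted p-values from 0.246 to 0.987. The coefficient of variation had a median of 8.67% over the 10 genes, and of 7.50% over the 2217 genes of the same range of levels.

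**Figure D2:**
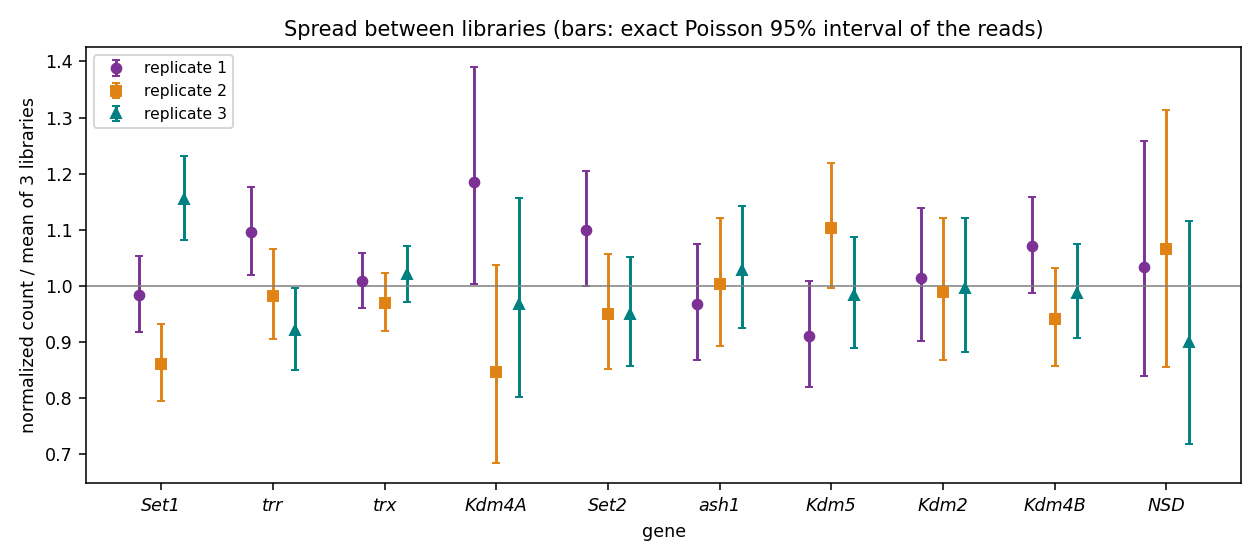
Normalized count of each gene in each library divided by its mean over the 3 libraries, with genes in their order per kb along the x axis; bars are exact Poisson 95% intervals of the reads. For *Set1* the replicate 3 interval stands clear of the others, for *trr* replicates 1 and 3 are apart, and for *Kdm2* and *trx* all intervals overlap.

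*Set1* lies in the pericentromeric part of chromosome arm 3L, and most of the genes around it had the same high and low libraries. This comparison was chosen after the values were seen and carries no test. Each library's log2 deviation from the gene's own mean was taken relative to the median gene tested, so that library scaling cancels. For *Set1* it was −0.03, −0.19 and 0.20 in replicates 1, 2 and 3. For the 19 nearest genes with a mean of at least 10 (10 on the side away from the centromere and the 9 that remain on the other), the medians were −0.07, −0.16 and 0.19. Replicate 3 was the highest library for 15 of these 19 genes, against 37.7% of all genes tested, and replicate 2 the lowest for 14, against 39.7%. Of the 19, 8 were called, against 9.76% of all genes tested. Among the 8 were *Snap25*, a synaptic vesicle fusion gene (1570, 1461 and 1986 normalized counts), and *vtd*, a cohesin subunit gene (697, 642 and 846). Another was *lovit*, which encodes a transporter needed for histamine in photoreceptor synapses (6910, 6457 and 8799). *MED21*, which overlaps *Set1* by 257 bases, had 134, 103 and 131 normalized counts, with replicates 1 and 3 close together. Around the other 9 enzymes the median deviation of the 20 nearest genes in replicate 3 ran from −0.07 (*trr*) to 0.06 (*trx*), and from −0.04 to 0.08 in replicate 2. These sets are unlike in extent: the genes around *Set1* stretch over 4652 kb, those around the other 9 over 71.4 kb (*trr*) to 639 kb (*NSD*). For *trr*, whose own deviations were 0.12, −0.01 and −0.13, the neighbours had medians of −0.04, 0.08 and −0.07. What the *Set1* region shares in replicate 3 was not tested.

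**Figure D3:**
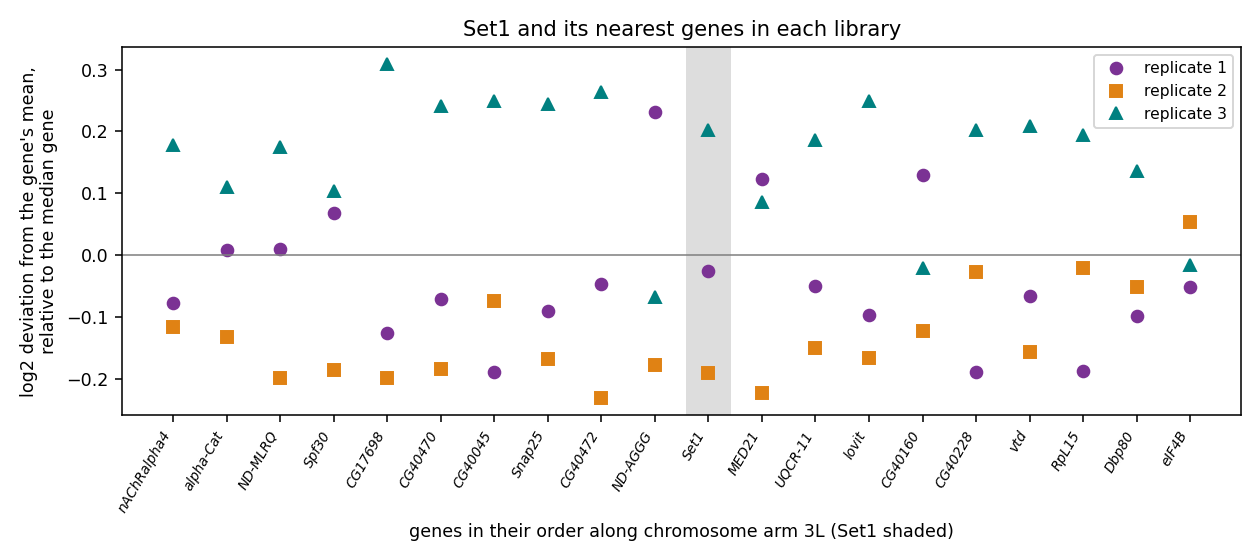
Log2 deviation of each library from the gene's mean, relative to the median gene tested, for *Set1* (shaded) and its 19 nearest tested genes in their order along 3L. Replicate 3 (triangles) is the highest for *Set1* and for 15 of the 19 genes, and replicate 2 (squares) lies at −0.19 for *Set1*.

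The enzymes work with partner proteins, listed by complex and measured in the same libraries. The COMPASS subunits covered a wide range. Of 12 listed genes 11 had a row, and the subunits that the complexes share were low: *wds* had 6.76 ± 1.9, *Rbbp5* 8.43 ± 1.6 and *ash2* 8.46 ± 2.0 normalized counts per kb (SD, n = 3), all under the table median of 19.6. The *Set1* complex subunits *Cfp1*, which binds CpG-rich DNA in mammals, and *Wdr82* stood at 14.2 ± 4.2 and 12.4 ± 2.5. The catalytic genes were higher per kb, *Set1* at 141, *trr* at 104 and *trx* at 88.3, and in each library the lowest of these 3 lay above the highest of *wds*, *Rbbp5*, *ash2*, *Cfp1* and *Wdr82*. The values of these 5 low genes rest on few reads, 8 to 36 per library. Among the other subunits *Ncoa6*, a nuclear receptor coactivator in the *trr* complex, had 155 ± 9.2, *Hcf* 85.0 ± 6.0, *Mnn1* (menin) 66.7 ± 1.2, *Utx*, the H3K27 demethylase of the *trr* complex, 54.8 ± 5.3 and *Ptip* 48.8 ± 5.1. *Lpt*, also of the *trr* complex, was lower at 20.4 ± 3.0, and its range over the libraries overlapped that of *Cfp1*. None of the 11 genes was called in the chi-square test, against 9.76% of all genes tested. An unadjusted p under 0.05 was found for 3, and for 20.9% of all genes tested. *Dpy-30L1* had no row. Of the 11 genes 6 lay above the table median per kb, and their own median was 20.4.

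Ubiquitination of histone H2B precedes H3K4 methylation, and its enzymes *Bre1* and *Ubc6* (the E3 and E2 enzymes) stood at 83.6 ± 12.3 and 130.0 ± 16.5 normalized counts per kb. Both were called between libraries (chi-square adjusted p = 0.0286 and 0.0326). They were the 2 called of 7 genes listed with the Paf1 complex, against 9.76% of all genes tested. *Bre1* had 417, 367 and 309 normalized counts, highest in replicate 1, and *Ubc6* 499, 453 and 580, highest in replicate 3. The Paf1 complex genes, which link both marks to elongating polymerase, were lower, from 1.14 ± 0.17 (*atms*) to 45.5 ± 4.9 (*Rtf1*), with *Ctr9* at 18.0 ± 0.75, *hyx* at 16.0 ± 5.0 and *Atu* at 10.3 ± 0.47. The span of *atms*, 27.5 kb, makes its per-kb value low, and undivided it had 31.3 ± 4.8 normalized counts. Of these 7 genes 3 lay above the table median per kb, with a median of 18.0. Undivided, 5 of the 7 did, with a median of 82.3 normalized counts against 56.8 for all genes. Readers and partners of H3K36 methylation ran from 7.46 ± 3.3 (*Caf1-55*) to 57.6 ± 3.7 (*Ndf*). *MRG15*, which binds methylated H3K36 and activates the ash1 enzyme, had 30.9 ± 7.1, *JIL-1*, a histone H3 kinase, 28.6 ± 1.7, its partner *Jasper*, which binds H3K36 methylation, 20.5 ± 5.5, and *msl-3*, the reader in the dosage compensation complex of males, 22.4 ± 6.0. Of these 6 genes 5 lay above the table median per kb, with a median of 25.5. Without division by span 2 of the 6 did, and their median was 51.8 normalized counts against 56.8 for all genes. None of the 6 passed the chi-square test, against 9.76% of all genes tested, nor at an unadjusted p under 0.05, against 20.9%.

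Corepressor partners of the demethylases varied widely. *Sin3A*, a scaffold that Kdm5 joins, had 2660, 2681 and 2740.5 normalized counts, or 152 ± 2.4 per kb, while *HDAC1* (formerly *Rpd3*), the deacetylase of the same complex, had 10.7 ± 2.5 per kb. *Su(var)3-3*, the fly Lsd1, which removes mono- and dimethylation from H3K4 by another chemistry, had 14.3 ± 3.8, below all 4 Jumonji demethylases, and its partner *CoRest* 38.7 ± 3.1. *CG3815*, listed by its name Pf1, a Sin3A-associated gene, had 18.5 ± 3.4. The 5 listed partners had a median of 18.5 per kb, 2 of them above the table median. Undivided, 3 of the 5 did lie above it, with a median of 66.1 normalized counts against 56.8 for all genes. None of the 5 was called, against 9.76% of all genes tested, nor passed at an unadjusted p under 0.05, against 20.9%. Methyltransferases of other histone lysines gave a scale for the enzymes themselves. Their 7 genes had a median of 39.2 normalized counts per kb, against 62.8 for the 10 enzymes, of which 4 are demethylases. The medians were 104 for the H3K4 methyltransferases alone and 57.3 for those of H3K36. The 7 genes ran from 6.41 ± 0.52 (*Su(var)3-9*, an H3K9 methyltransferase) to 215 ± 11.3 (*Hmt4-20*, an H4K20 methyltransferase), which lay above *Set1*. *gpp*, the H3K79 methyltransferase, had 64.1 ± 3.3, *G9a* 57.0 ± 3.1, *Set8* 39.2 ± 6.3, *E(z)*, the catalytic subunit of Polycomb repressive complex 2, 23.4 ± 4.2, and *egg* 18.6 ± 0.82. None of the 7 was called, against 9.76% of all genes tested, and 3 had an unadjusted p under 0.05, beside the 20.9% of all genes.

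**Figure D4:**
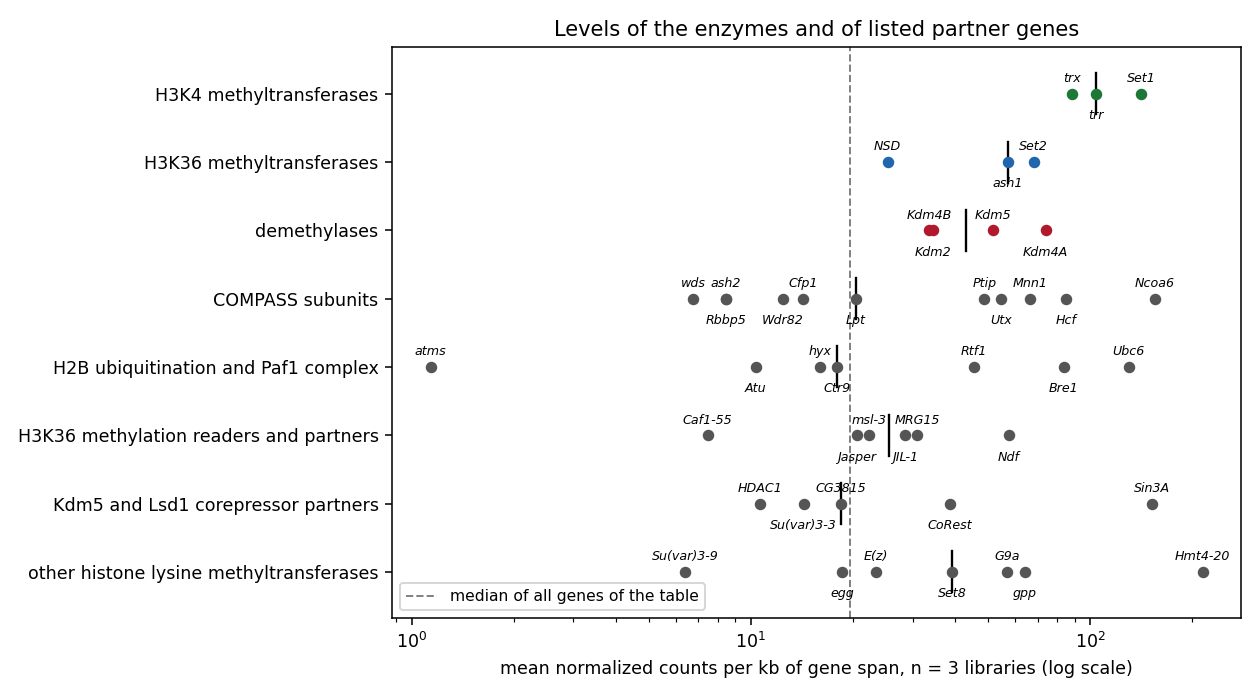
Mean normalized counts per kb of gene span (log axis) for each gene of the 3 enzyme roles and of 5 lists of partner and related genes; short vertical bars are list medians and the dashed line is the median of all genes of the table, 19.6. The 10 enzymes all lie right of that line, while *wds*, *Rbbp5*, *ash2*, *Wdr82* and *Cfp1* lie left of it.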

How the data were processed

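Nuclear RNA was measured in 3 libraries. The authors deposited log2 values for 7602 genes, and per the file's name counts had been normalized with DESeq2. STAR, DESeq2 and the builds dm6 and BDGP6 are among the entries of the submitters' processing notes, which give no roles. The read counter, strandedness, annotation release and gene filter are not given in the sources used here. Each deposited log2 value was taken as an exponent of 2 and lowered by 1. In every library 100% of the results were whole multiples of a single smallest value (tolerance 0.001), the worth of 1 read, and reads were recovered by dividing by it. No column of sample values was left without a sample. Symbols matched 7553 identifiers, and 3 listed genes were found by an older symbol. Span, chromosome and position came from the RefSeq annotation of Release 6. The design had provided for exon or coding length; span was used instead, and it includes introns. Promoter motifs were not examined. The chi-square test, with 2 degrees of freedom, was tested on simulated data. With 1 group there was no count model between groups. Genes named are all members and all genes of the partner lists, and some neighbours of *Set1* chosen after their values were seen. Members and lists were chosen with earlier results of these data known. Alternatives were equal totals, trimmed mean scaling, minimum means of 1 and 50, an adjusted p under 0.01, pseudocounts of 0.1 and 10 in place of 1, no division by span, and each replicate left out. Python 3.11.15, numpy 2.4.6, scipy 1.17.1, pandas 2.3.3 and matplotlib 3.10.9 were used.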

Additional observations from a re-analysis of the deposited data

How the results depend on the processing

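The median of the 10 enzymes lay 1.69 above that of all genes on the log2 scale per kb (1.66 to 1.72 with a replicate left out) and 3.19 without division. With a pseudocount of 1 and no division it was 3.17, 2.88 when genes under a mean of 10 were dropped, and 2.99 at a pseudocount of 10. Without division by span, an alternative chosen after seeing the data for pairs, 4 neighbours turned: *trr* to *trx* from 0.23 to −1.22, *Kdm4A* to *Set2* from 0.11 to −1.71, *ash1* to *Kdm5* from 0.15 to −0.19, and *Kdm2* to *Kdm4B* from 0.04 to −0.98. Dividing by span lowers long genes by construction. The 2 enzymes called became 1 (*Set1*) at a minimum mean of 1, where 8.79% of all genes tested were called. The same held at an adjusted p under 0.01 (6.49% of all genes tested). With equal totals 3 enzymes were called (9.76% of all genes), and with a replicate left out 0 to 2 (3.52% to 9.87%). Over the whole table, 448 genes passed at the stricter threshold in place of 674, and 243 to 681 passed with a replicate left out. The list of H3K36 readers, −0.17 against the table median in undivided counts, was 0.063 without replicate 2 and down to −0.29 with another replicate left out. Exon and coding lengths and promoter motifs were not run. No paired analysis was possible because all 3 RNA libraries belong to 1 group. Depth limits *NSD* and *Kdm4A*, at 84 to 151 reads a library.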

Other observations

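The high values of replicate 3 around *Set1* were also seen at the centromere-proximal ends of other chromosome arms, a comparison chosen after the values were seen and given with no test. Among the 30 tested genes nearest the centromere on each arm, replicate 3 was the highest library for 25 on 3L, 25 on 2L and 25 on 2R, against 38.7%, 38.7% and 37.6% of the genes on the rest of these arms. The median log2 deviation in replicate 3, relative to the median gene, was 0.18, 0.12 and 0.22 for these ends. The 3L set includes *Set1* and its 19 nearest tested genes described above, so it repeats those values in part. On 3R and X replicate 3 was the highest for 15 (50%) and 12 (40%) of the 30 genes, with median deviations of 0.01 and −0.02. On the rest of these 2 arms the shares were 35.8% and 30.8%. Of the enzymes *Set1* alone lies in one of these sets. *Hcf*, the COMPASS subunit gene on chromosome 4, had 1299, 1252 and 1432 normalized counts, in the same order of libraries as *Set1*. It was not called (chi-square adjusted p = 0.076). *trx*, on the rest of 3R, also had that order (2097.8, 2017.8 and 2123.1), but within counting error (chi-square adjusted p = 0.678). With libraries scaled to equal totals, replicate 2 was the highest for *trx* and replicate 3 the lowest, while *Set1* kept its order. No other gene of chromosome 4 is given here.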
